A study of Mus musculus with 12 samples.

Results

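The genes described here encode the machinery that copies DNA, namely the MCM helicase, the origin recognition complex, the licensing factors, the GINS complex, the replicative polymerases, the sliding clamp and its loader, the single-strand binding protein RPA, and factors that protect the fork or join new strands. They were chosen by name from a list of 45 genes, and every row of the authors' deposited table whose gene was on that list was taken, whatever its class or value. Rows were found for 41 of the 45 genes. They made up 562 of the 138745 rows of the table, which covers 15139 genes. Mcm10, Orc2, Pold2 and Fen1 matched no row and were not analysed here, and Lig1 and Timeless had 1 row each, with no adjusted p at either time.

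The study withdrew the kinase CDK13, a cyclin K partner that phosphorylates RNA polymerase II, from mouse embryonic stem cells and asked how RNA processing changed. The cells were V6.5, a hybrid C57Bl/6-129 line kept on gelatin with LIF, and every group had the genotype Cdk13-/-; Cdk13 Tg+, in which a Flag-HA tagged Cdk13 transgene runs while doxycycline is present. Polyadenylated RNA was sequenced from 12 libraries. There were 4 after 48 h without doxycycline, 4 after 72 h without it and 4 kept in doxycycline at 1 ug/mL, and each set of 4 came from 2 clones (11-8 and 14-1) with 2 libraries per clone. No cells lacking the transgene were taken off the drug, so that loss of Cdk13 and removal of doxycycline cannot be told apart. Each time was compared with the same libraries in doxycycline, so the 48 h and 72 h results are not independent of each other. The labelled cell type could not be checked by marker levels, because the table holds no levels. Parts of 5 of 7 embryonic stem cell marker genes, Pou5f1 and Nanog among the genes found, had an adjusted p at 72 h, as did parts of 3 of 5 fibroblast, 2 of 4 primitive endoderm, 3 of 3 trophoblast and 2 of 3 neural marker genes. Among the marker genes, a terminal part of Pou5f1 fell by 0.03 and a part of Tubb3 rose by 0.06 at 72 h in the authors' deposited table, and no other part was called.

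Replication begins when the origin recognition complex, Cdc6 and Cdt1 load the MCM ring onto origins, and the kinase Cdc7 with its partner Dbf4 then starts the helicase with GINS and Cdc45. Polymerase alpha-primase lays down primers, the clamp loader RFC places the ring-shaped clamp PCNA on them, and polymerases epsilon and delta extend the leading and lagging strands while RPA covers bare single strands. Embryonic stem cells spend much of a short cell cycle in S phase and express these genes at high levels.

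A row stands for 1 exon part, the piece of a gene over which reads were counted, which can lie in an exon or in an intron kept in polyadenylated RNA. Every fold change and p printed here was taken from the authors' deposited table and compares cells without doxycycline with cells in it. DEXSeq tests how much a part is used relative to the rest of its gene, so a higher value means a larger share within the gene and says nothing of the gene's total RNA. A part is said to have risen, fallen or been called where the adjusted p was below 0.05. With no values per library, the spread between replicates and the depth behind each value are unknown.

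At 72 h, an adjusted p was given for 506 of the 562 replication gene parts, and 36 of these 506 were called in the authors' deposited table, which is 7.11%, against 3.6% of all 105545 parts tested. Of these, 26 rose (5.14%, against 2.33% of all parts) and 10 fell (1.98%, against 1.28% of all parts). They lay in 17 of 39 genes tested (43.6%), against 19.1% of all genes tested. A gene with more tested parts has more chances to hold a call. The replication genes had more tested parts per gene (506 in 39 genes, against 105545 in 11600). Shares of genes, here and below, were not matched for this number. Parts with an adjusted p at both times were called more often, and they made up more of the replication gene parts than of all parts. Among them, 7.86% of 369 replication gene parts were called at 72 h, against 5.77% of 42340 in all genes. With an adjusted p at 72 h only, 5.11% of 137 were called, against 2.15% of 63205. The 3.6% used here and below is not matched for this. At 48 h, 8 of 369 parts were called (2.17%, against 1.62% of all parts), 7 higher (1.9%, against 0.964% of all parts) and 1 lower (0.271%, against 0.633% of all parts), in 6 of 37 genes (16.2%, against 7.12% of all genes). Most of the changes were small. The median absolute log2 fold change of the called parts was 0.07 at 72 h, against 0.16 for called parts of all genes, and 29 of the 36 called parts had an absolute log2 fold change below 0.2. The other 7 were at 0.3 or above, and all 7 had no adjusted p at 48 h. The median over all replication gene parts with a value was near 0 at 72 h, with a log2 fold change of 0.002, against 0.008 for all parts.

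**Figure D1:**
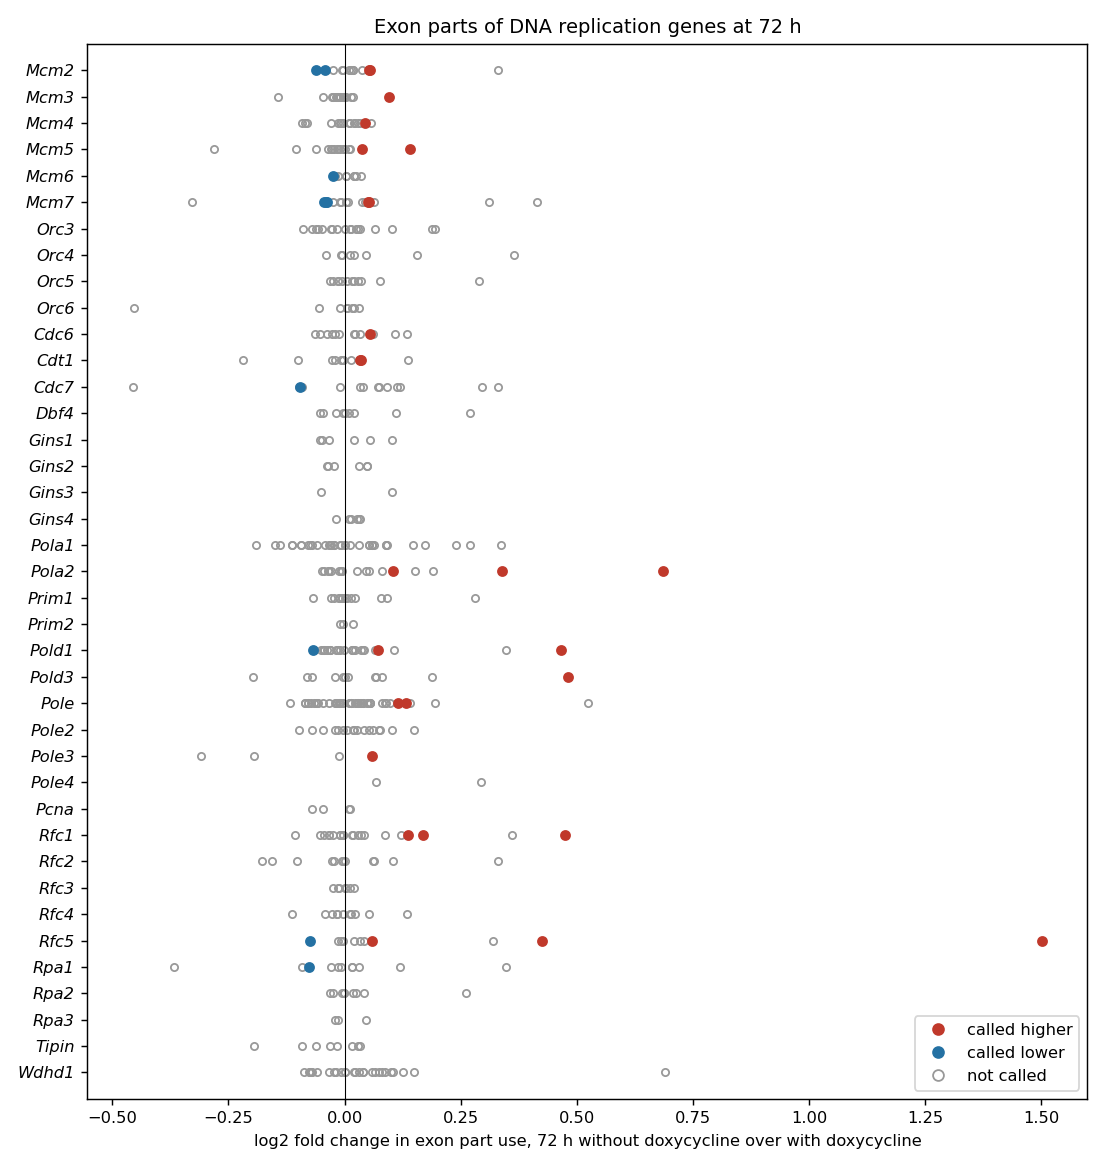
Log2 fold change in relative use at 72 h without doxycycline over with doxycycline (x axis) of each exon part with an adjusted p, 1 row per gene in order of the complexes. Filled points are called parts, red for higher and blue for lower, open points were not called, and the called Rfc5 part at 1.50 stands farthest from 0.

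The 7 largest called changes were all rises of sequence that the gene annotation places inside introns. They lay in Rfc5, Pola2, Pold1, Pold3 and Rfc1, which encode subunits of the clamp loader and of polymerases alpha and delta. To see whether a part lies in an exon or an intron, the widths and spacing of a gene's parts were matched to GENCODE M21 transcripts, which gave a placement for 30 replication genes with 3 to 33 exons matched in each. The exon ends (10 bases, capitals) and intron ends (lower case) that flank the called introns are shown where they could be read. This needed an annotated exon of the gene in GENCODE M21 that covers the bases shown. Such an exon need not span the whole intron. All are given 5′ to 3′ on the transcribed minus strand of GRCm38.
Pola2 intron 10, 5′ splice site, chr19:5950426-5950455: GAGGAGGGAGgtaagttctgtttcaaaatt
Pola2 intron 10, 3′ splice site, chr19:5948517-5948556: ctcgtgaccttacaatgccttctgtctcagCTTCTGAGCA
Pold1 intron 22, 5′ splice site, chr7:44534365-44534394: GAAGTCGGAGgtcaggcccacctgggctgg
Pold1 intron 22, 3′ splice site, chr7:44534008-44534047: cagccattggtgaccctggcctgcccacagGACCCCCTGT
Pold3 intron 10, 3′ splice site, chr7:100089746-100089785: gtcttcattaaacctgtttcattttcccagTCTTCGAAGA
Rfc5 intron 10, 5′ splice site, chr5:117380747-117380776: CAGACATCGAgtgagtgtgttcccagtttc
Rfc5 intron 10, 3′ splice site, chr5:117379897-117379936: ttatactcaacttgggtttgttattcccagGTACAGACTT

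Rfc5, a small subunit of the clamp loader, held the largest change of the replication genes. Its part E023 (mm9 chr5:117837446-117837702, 257 bases) rose with a log2 fold change of 1.50 at 72 h in the authors' deposited table, a 2.83-fold higher relative use (adjusted p = 6.31e-20). The part lies in intron 2 of 10, an intron of 1010 bases, and starts 175 bases after its 5′ splice site. The placement of all Rfc5 parts rests on 3 matched exons, the fewest accepted, in a transcript of 11 exons. The exon before that intron is part E024, which was 0.06 higher at 72 h (adjusted p = 0.0128) and 0.06 higher at 48 h (adjusted p = 0.042 in the authors' deposited table). At the other end of the gene, the terminal exon E001 fell by 0.07 at 72 h (adjusted p = 3.26e-04 in the authors' deposited table). The remaining called Rfc5 part, E003 (340 bases), had a log2 fold change of 0.43 (adjusted p = 0.00192 in the authors' deposited table). It lies in the last intron and ends where the last annotated exon, of 1804 bases, begins. It does not adjoin part E001, which starts farther downstream. The intronic part E014, between E023 and E003, had 0.32 and was not called (adjusted p = 0.176 in the authors' deposited table).

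Pola2, the second subunit of polymerase alpha, had 3 called parts and all rose. E021 (mm9 chr19:5951983-5952477, 495 bases) had a log2 fold change of 0.69 at 72 h (adjusted p = 2.07e-05 in the authors' deposited table) and lies within intron 7 of 17, 587 bases after the 5′ splice site. E014 (mm9 chr19:5948527-5950444) is a detained intron, the authors' class for introns kept in otherwise spliced polyadenylated RNA, and had 0.34 (adjusted p = 1.61e-05). It spans 1918 of the 1919 bases of intron 10. The first exon E036 rose by 0.10 (adjusted p = 0.00223 in the authors' deposited table). The other subunits of the complex, Pola1, Prim1 and Prim2, had no called part.

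**Figure D2:**
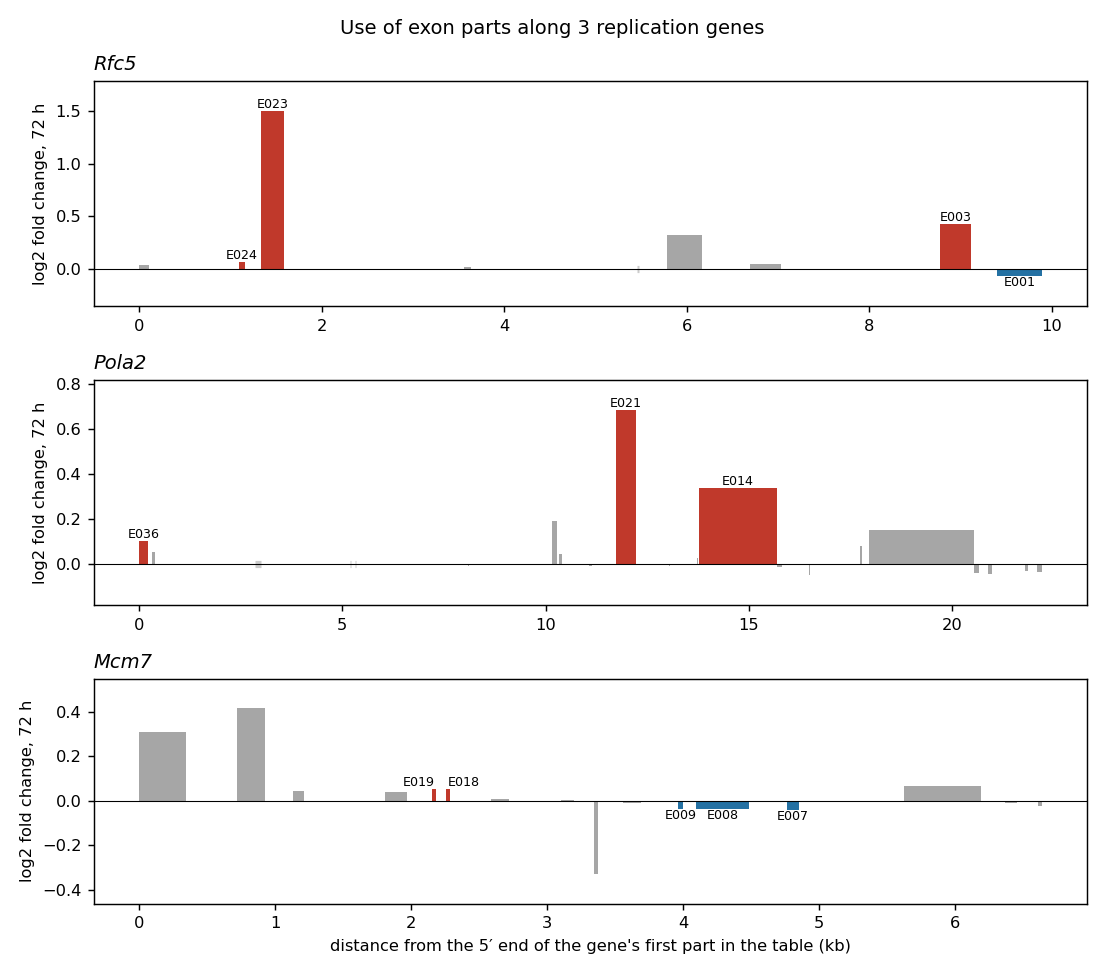
Log2 fold change at 72 h without doxycycline over with doxycycline (y axis) of each part of Rfc5, Pola2 and Mcm7 against its distance from the 5′ end of the gene's first part in kb (x axis), with bars as wide as the part and narrower parts drawn at 0.03 kb. Red bars were called higher, blue bars called lower and grey bars not called, pale marks at 0 had no value, and in Rfc5 and Pola2 the tall red bars are intronic parts.

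Detained introns were also called in Pold1, Pold3 and Rfc1, at 2 of 4 tested in polymerase delta and 1 of 4 in the clamp loader. In Pold1, the catalytic subunit of polymerase delta, detained intron E009 (mm9 chr7:51789415-51789753, 339 of the 367 bases of intron 22) had a log2 fold change of 0.47 (adjusted p = 0.0118 in the authors' deposited table). In Pold3, an accessory subunit, E006 (mm9 chr7:107238266-107241880, 3615 bases) had 0.48 (adjusted p = 0.00279 in the authors' deposited table). In Rfc1, the large clamp loader subunit, E013 (mm9 chr5:65667021-65668594, 1574 bases) had 0.47 (adjusted p = 0.02 in the authors' deposited table). With that of Pola2 these were 4 called detained introns, all higher, among 34 tested in 24 replication genes. That is 11.8% called, against 15.3% of the detained introns of all genes, and the median log2 fold change was 0.12, against 0.18 for those of all genes. Detained introns of the replication genes were thus called at a share close to the background. The detained introns that were not called ranged from -0.46 in Cdc7 to 0.37 in Orc4.

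Parts that the authors left unclassified split by place. In annotated introns of the replication genes, 22 tested parts had a median log2 fold change of 0.10 at 72 h and 3 of them rose (13.6%), against a median of 0.08 and 5.64% higher for the same kind of part in all genes. The parts that rose were E003 and E023 of Rfc5, whose placement rests on 3 matched exons, and E021 of Pola2. They are too few to set the share apart from that of all genes. In annotated exons, the 343 parts had a median of -1.4e-05 with 15 higher (4.37%) and 6 lower, against a median of 0.007, 1.52% higher and 0.613% lower for all genes. The farthest unclassified intronic parts that were not called were Wdhd1 E029 at 0.69 (adjusted p = 0.322) and Pole E005 at 0.52 (adjusted p = 0.32 in the authors' deposited table), each as far from 0 as called parts. No intronic unclassified part of the replication genes had an adjusted p at 48 h, and only 1 detained intron did.

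**Figure D3:**
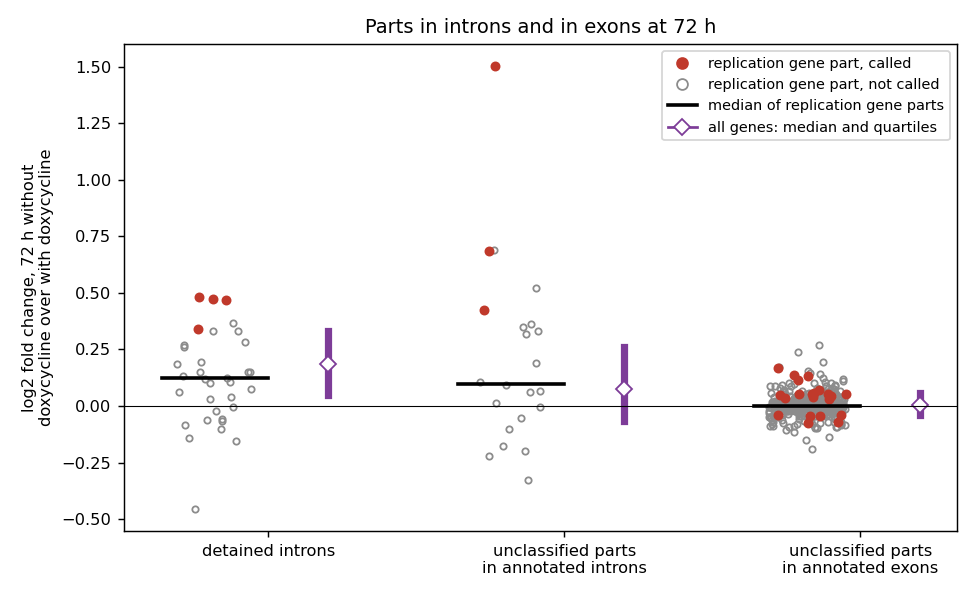
Log2 fold change at 72 h without doxycycline over with doxycycline (y axis) of replication gene parts by kind, called parts filled and others open, with their median as a black line, beside the median (diamond) and quartiles (bar) of the same kind in all genes. The 7 called intronic parts lie at 0.34 or above, while the called exonic parts shown lie between -0.08 and 0.17.

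In all, 17 5′ splice sites and 17 3′ splice sites could be read in this way, of introns that hold a detained intron or, in Rfc5, another intronic part. After the exon, 15 of the 17 introns began with gt, the Wdhd1 intron 14 with gc and a Prim1 intron with at. Detained introns of Prim1, the catalytic primase subunit, and of Rfc5 held the letters TATCCTT at intron bases 2 to 8, which are the core of the 5′ splice site used by the minor, U12-dependent spliceosome. Of 31890 annotated introns of all genes that could be read in the same way, 161 (0.505%) hold these letters, and the match says nothing of which spliceosome acts. The Prim1 intron, 7 of 12, begins with at and ends with ac, and both 5′ splice sites are shown, with the exon end in capitals and the matching letters among the intron's first bases.
Prim1 intron 7, 5′ splice site, chr10:128022963-128022992, plus strand: GTTCCTGAGAatatcctttcctgcggttac
Rfc5 intron 8, 5′ splice site, chr5:117382316-117382345, minus strand: GCCTACAAAAgtatccttttgggcaactgc
Neither intron was called at 72 h. The log2 fold change was -0.07 for Prim1 E010 (adjusted p = 0.946) and 0.04 for Rfc5 E010 (adjusted p = 0.946 in the authors' deposited table).

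Every gene of the MCM2 to MCM7 ring, the motor of the replicative helicase, had a called part at 72 h in the authors' deposited table. Of 89 tested MCM parts, 14 were called (15.7%, against 3.6% of all parts). Among the 14, 8 rose (8.99%, against 2.33% of all parts) and 6 fell (6.74%, against 1.28% of all parts). For 77 of the 89 parts the table also gave an adjusted p at 48 h. Over all genes, the called share for parts of that kind was 5.77%, a closer background than 3.6%. The difference from either share was not tested. Over all genes tested, 19.1% had a called part, with fewer tested parts per gene than in the MCM genes. The sizes were small, with log2 fold changes of called MCM parts between -0.06 and 0.14. Their median absolute value was 0.05, against 0.16 for called parts of all genes. In Mcm2, E028 rose by 0.05 (adjusted p = 6.06e-05), E029 next to it on the 5′ side rose by 0.05 (adjusted p = 3.30e-04) and the terminal exon E001 fell by 0.06 (adjusted p = 0.0299 in the authors' deposited table), and E002 next to it was called at -0.04. In Mcm7, E018 (adjusted p = 3.12e-06) and E019 (adjusted p = 4.8e-06) each rose by 0.05 and E007 fell by 0.04 (adjusted p = 2.34e-04 in the authors' deposited table), while E008 and E009, also on the 3′ side, were called at -0.04 each. Within both genes the parts that rose were on the 5′ side and the parts that fell on the 3′ side.

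The other MCM genes changed at 1 or 2 parts each. The first exon rose in Mcm3 (E026), by 0.10 at 72 h (adjusted p = 1.23e-06) and by 0.07 at 48 h (adjusted p = 0.00159 in the authors' deposited table). The first exon of Mcm5 (E002, 24 bases) rose by 0.14 at 72 h (adjusted p = 5.98e-04) and E008 by 0.04 (adjusted p = 0.00282 in the authors' deposited table). In Mcm4, E010 rose by 0.04 at 72 h (adjusted p = 0.0325 in the authors' deposited table), and E023 was called at 48 h only, with 0.06 at both times and adjusted p-values of 0.028 at 48 h and 0.303 at 72 h. In Mcm6 the terminal exon E001 fell by 0.02 (adjusted p = 0.0214 in the authors' deposited table), the smallest called change among the replication genes.

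Mcm7 is also the host of a microRNA cluster, Mir25, Mir93 and Mir106b, in intron 13 of 14. Part E005 (572 bases of that intron of 748 bases) spans the Mir93 and Mir106b hairpins whole and Mir25 in part. Its log2 fold change at 72 h was 0.06 and it was not called (adjusted p = 0.843 in the authors' deposited table). The polyadenylated RNA measured here does not count mature microRNAs, and the sequences are shown to mark arms that the part carries whole, from RefSeq (GRCm38.p6), with the seed (bases 2 to 8) in capitals.
mmu-miR-93-5p: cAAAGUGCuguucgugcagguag
mmu-miR-106b-5p: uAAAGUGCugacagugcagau
mmu-miR-25-5p: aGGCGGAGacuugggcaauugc
The first pair share a seed and the miR-25-5p arm has another. The 3p arms are not shown, and the part carries mmu-miR-25-3p, which has a different seed, only in part.

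Of the licensing factors and the start kinase, 4 of 47 tested parts were called (8.51%, against 3.6% of all parts). So few calls do not set this share apart, and the difference was not tested. Cdc6, the ATPase that completes the loading platform, had E003 higher by 0.05 at 72 h (adjusted p = 0.0361 in the authors' deposited table). Cdt1, which brings the MCM ring to origins, had E003 at 0.03 (adjusted p = 0.0303) and E012 at 0.04 (adjusted p = 0.00102 in the authors' deposited table), both called higher. In Cdc7, the catalytic subunit of the start kinase, the terminal exon E023 fell by 0.10 (adjusted p = 2.22e-04), while its value at 48 h was -0.01 (adjusted p = 0.761 in the authors' deposited table). Its partner Dbf4 had no called part among 9 tested, with log2 fold changes between -0.05 and 0.27.

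No part was called at either time in the origin recognition complex, GINS or the fork factors. Of all parts tested, 3.6% were called at 72 h and 1.62% at 48 h. Each of these groups has too few tested parts to set a count of 0 apart from those shares. Of 46 parts of Orc3, Orc4, Orc5 and Orc6, which mark origins, 0 were called at 72 h, and their log2 fold changes ran between -0.45 and 0.37. Gins1, Gins2, Gins3 and Gins4, which bind the helicase, had 0 of 20 parts called, between -0.05 and 0.10. Tipin, of the fork protection complex, and Wdhd1, which ties polymerase alpha to the helicase, together had 0 of 35 parts called, between -0.20 and 0.69. The table gives adjusted p-values only, so calls at an unadjusted p cannot be counted, and the difference between these complexes and the MCM genes was not tested.

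Among the polymerases, 3 of 71 tested parts of polymerase alpha-primase were called at 72 h (4.23%, against 3.6% of all parts). The counts were 4 of 38 in polymerase delta (10.5%) and 3 of 71 in polymerase epsilon (4.23%). The called parts include the intronic parts of Pola2, Pold1 and Pold3 named above. They are few, and the differences from the share of all parts were not tested. Polymerase alpha-primase had no called part outside Pola2, with log2 fold changes between -0.19 and 0.34 in Pola1, -0.07 and 0.28 in Prim1, and -0.01 and 0.02 in Prim2. In Pold1, E010, directly upstream of the detained intron E009 named above, fell by 0.07 at 72 h (adjusted p = 0.0252) and by 0.08 at 48 h (adjusted p = 0.0221), and E031 rose by 0.07 at 72 h (adjusted p = 0.0201) and by 0.08 at 48 h (adjusted p = 0.03 in the authors' deposited table). In Pole, the catalytic subunit of the leading-strand polymerase, the neighbouring exons E023 and E024 rose by 0.12 (adjusted p = 0.0489) and 0.13 (adjusted p = 0.0106 in the authors' deposited table) at 72 h. At 48 h the same Pole exons had risen by 0.14 (adjusted p = 0.0121) and 0.15 (adjusted p = 0.00176 in the authors' deposited table). Pole3, a histone-fold subunit, had E003 higher by 0.06 at 72 h (adjusted p = 0.0265 in the authors' deposited table), while Pole2 and Pole4 had no called part among 17 and 2 tested.

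In the clamp loader the calls at 72 h lay in Rfc1 and Rfc5. Besides its detained intron, Rfc1 had 2 neighbouring parts on the 5′ side that rose, E036 by 0.14 (adjusted p = 0.0282) and E037 by 0.17 (adjusted p = 0.0233 in the authors' deposited table). Rfc2 was called at 48 h only, at a first-exon part of 3 bases (E002), with 0.09 at 48 h (adjusted p = 0.042) and 0.06 at 72 h (adjusted p = 0.17 in the authors' deposited table). Rfc3, Rfc4 and the clamp Pcna had no called part among 7, 11 and 4 tested. In Rpa1, the large subunit of RPA, E021 fell by 0.08 at 72 h (adjusted p = 1.27e-04 in the authors' deposited table). It is part 6 of 12 in order from the 5′ end, on the 5′ side by order, but starts 35014 bases from that end, past the middle of the gene's length. Rpa2 and Rpa3 had no called part.

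Called first exons of the replication genes rose and called terminal exons fell, as did most of those of all genes at 72 h. Over all genes, 382 of 427 called first exons rose and 662 of 711 called terminal exons fell. Of 23 tested first exons, 3 were called and all rose (13%, against 5.96% of the first exons of all genes), with a median log2 fold change of 0.05 over the tested first exons and also 0.05 over those of all genes. Of 29 terminal exons, 4 were called and all fell (13.8%, against 8.83% of those of all genes), and the median was -0.04, again with -0.04 for all genes. With 3 and 4 calls, the called shares are too uncertain to set apart from those of all genes. Cassette exons, 16 tested, and intronic polyadenylation parts, 8 tested, held no call, against 2.36% and 6.74% called of those of all genes, and they are too few to set a count of 0 apart from those shares. The 150 bases before the annotated start, from RefSeq (GRCm38.p6), are shown for the 3 genes whose first exon rose, with letters of the E2F consensus in capitals, since E2F factors are textbook regulators of replication genes.
Mcm5, chr8:75109359-75109508, plus strand: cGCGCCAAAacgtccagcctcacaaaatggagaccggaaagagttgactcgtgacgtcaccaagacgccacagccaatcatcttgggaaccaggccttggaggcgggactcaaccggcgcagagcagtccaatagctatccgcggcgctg
Mcm3, chr1:20820313-20820462, minus strand: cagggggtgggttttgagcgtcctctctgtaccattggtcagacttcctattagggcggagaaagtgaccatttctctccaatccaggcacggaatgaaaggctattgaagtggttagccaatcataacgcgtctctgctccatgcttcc
Pola2, chr19:5964207-5964356, minus strand: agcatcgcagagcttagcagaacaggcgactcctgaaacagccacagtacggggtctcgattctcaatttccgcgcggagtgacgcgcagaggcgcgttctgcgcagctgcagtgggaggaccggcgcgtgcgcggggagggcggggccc
The consensus was searched on both strands as TTTCCCGC, TTTCGCGC, TTTGCCGC or TTTGGCGC in the 250 bases before each start, for the 33 replication genes found in the RefSeq promoter table. It was present for 9 of them, Mcm5 included but not Mcm3 or Pola2, and in 25% of their 40 windows against 1.86% of 32851 windows of all genes. The windows of all genes were not matched for base composition. The CCAAT box was in 42.5% of the replication gene windows against 33.8% of all windows. These matches are a description of the sequence, not of binding.

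Along the replication genes, called rises lay mostly on the 5′ side and called falls mostly on the 3′ side. With the parts of a gene split at the middle of their order, 18 of 236 parts on the 5′ side rose at 72 h and 1 fell (7.63% and 0.424%, against 3.47% and 0.347% on the 5′ side of all genes). On the 3′ side 8 of 253 rose and 9 fell (3.16% and 3.56%, against 1.32% and 2.17% for all genes). At 48 h, 7 of 172 parts on the 5′ side rose (4.07%, against 1.92% for all genes) and none fell (0.125% for all genes), and on the 3′ side 1 of 185 fell (0.541%, against 1.05% for all genes) and none rose (0.241% for all genes). The median log2 fold change of the 5′ side was 0.02 and that of the 3′ side -0.02 at 72 h, against 0.03 and -0.01 for all genes. Gene by gene, the median of the 5′ side was above that of the 3′ side in 27 of 31 replication genes with enough tested parts at 72 h (87.1%, against 71.5% of all genes) and in 18 of 24 at 48 h (75%, against 78% of all genes). The 4 exceptions at 72 h were Pold3, Mcm6, Orc6 and Rpa2. The widest gaps were in Cdc7, with 0.07 on the 5′ side and -0.09 on the 3′ side, and in Rfc1, with 0.09 and -0.02. A larger share for one part lowers the shares of the gene's other parts, so these counts are not independent. The difference of the side medians at 72 h was 0.04 both in the replication genes and in all genes.

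**Figure D4:**
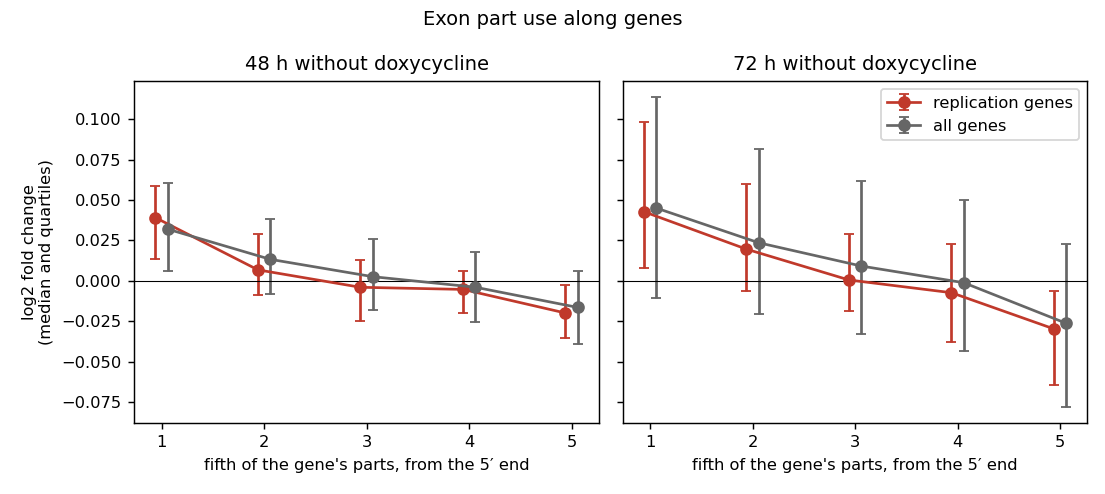
Median log2 fold change, without doxycycline over with doxycycline, with quartiles (y axis), of parts in 5 bins ordered from 5′ to 3′ within each gene (x axis), at 48 h and 72 h, for replication genes (red) and all genes (grey). In the replication genes the median at 72 h runs from 0.04 in the 5′-most bin to -0.03 in the 3′-most bin.

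The values at the 2 times, which share the doxycycline libraries, are set side by side for each called part. Of the 36 parts called at 72 h, 29 had a value at 48 h, and 24 of those 29 were farther from 0 at 72 h. These parts were picked by their call at 72 h, which favours larger values at that time, so the count does not show growth with time. Of the parts named above with a call at each time, Mcm3 E026 was farther from 0 at 72 h, while the parts of Pole and Pold1 and Rfc5 E024 were closer to 0 at 72 h. For Mcm7 E019, 0.02 at 48 h (adjusted p = 0.379) stood beside 0.05 at 72 h, and for Rfc5 E001, -0.01 at 48 h (adjusted p = 0.866 in the authors' deposited table) beside -0.07 at 72 h. Parts with an adjusted p at both times and parts with one at 72 h only differed in size, in the replication genes as in all genes. The 369 replication gene parts of the first kind had a median absolute log2 fold change of 0.03 at 72 h, with 19 higher and 10 lower (5.15% and 2.71%), against a median of 0.03, 3.3% higher and 2.47% lower in all genes. The 137 of the second kind had 0.10, with 7 higher (5.11%) and none lower, against 0.09, 1.67% higher and 0.478% lower in all genes.

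**Figure D5:**
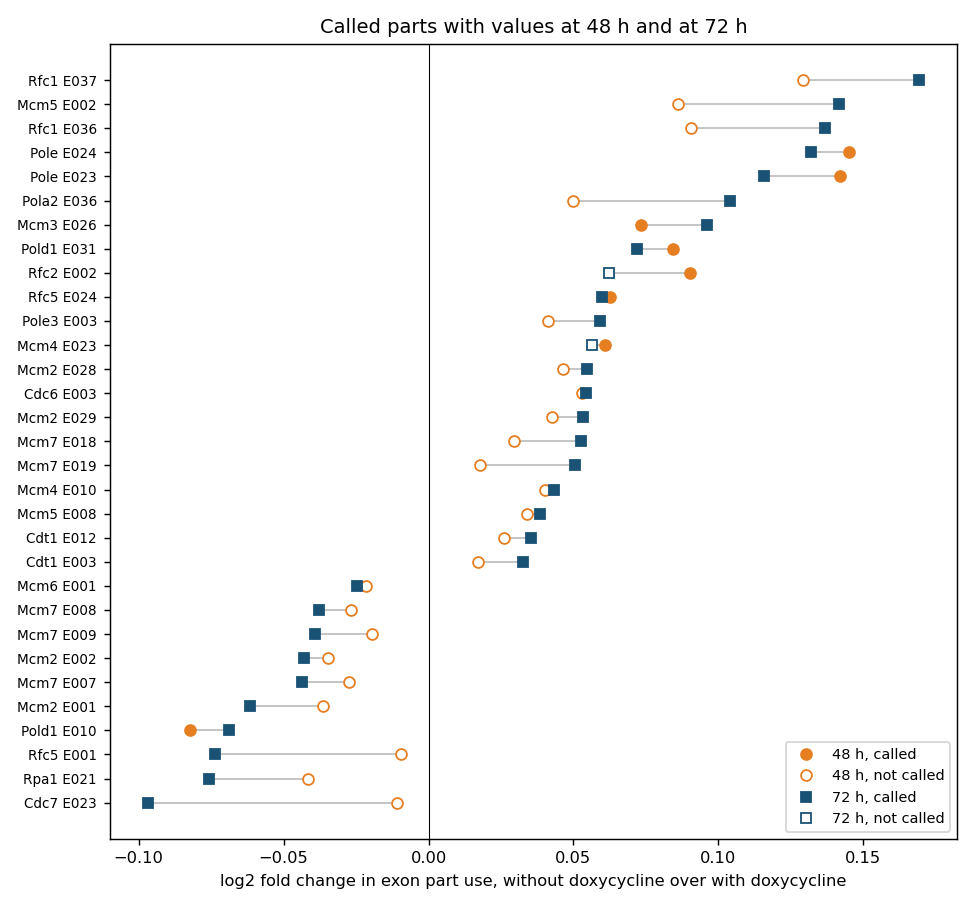
Log2 fold change, without doxycycline over with doxycycline (x axis), at 48 h (circles) and 72 h (squares) of each replication gene part called at either time that has values at both, filled where called. Grey lines join the times of a part, and the values lie between -0.10 and 0.17.

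Other genes of the replication pathway were read from lists, in the same authors' deposited table at 72 h, and the parts given with values were picked after their values were seen. Of other licensing and initiation genes, 3 of 13 tested had a called part (23.1%, against 19.1% of all genes), namely Gmnn, Ccne1 and Rif1, with 2 parts higher and 1 lower of 193 (1.55% called, against 3.6% of all parts). The first exon of Gmnn, the gene of the Cdt1 inhibitor geminin, rose by 0.16 (adjusted p = 9.80e-04 in the authors' deposited table). Of other fork, lagging-strand and topology genes, 3 of 17 had a called part (17.6%, below the 19.1% of all genes), namely Chtf18, Chtf8 and Dna2, with 4 parts higher of 268 (1.49%, below the 3.6% of all parts), among them a detained intron of the nuclease gene Dna2 at 0.73 (adjusted p = 0.02 in the authors' deposited table). Nucleotide supply genes had called parts in 5 of 8 (62.5%, against 19.1%), namely Rrm1, Tyms, Dut, Tk1 and Samhd1, with 3 parts higher and 3 lower of 72 (8.33%, against 3.6%). Dut, which removes dUTP, fell at its first exon E001 by 0.69 (adjusted p = 0.0022) and at its terminal exon by 0.35 (adjusted p = 2.23e-09 in the authors' deposited table). Chromatin assembly genes at forks had called parts in 7 of 10 (70%, against 19.1%), with 19 higher and 8 lower of 176 parts (15.3%, against 3.6%). Uhrf1, which guides maintenance DNA methylation, was 0.27 higher at its first exon E002 (adjusted p = 2.27e-06), and its terminal part E028 was 0.49 higher (adjusted p = 3.26e-04 in the authors' deposited table).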

How the data were processed

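The 12 mRNA libraries kept strand and started from RNA with integrity numbers of at least 8.9, per the labels. Use of exon parts was tested with DEXSeq, per the file headers. The submitters' processing notes list STAR 2.4.1d and mm9. The deposited table gives, per part and time, the authors' adjusted p-value and their log2 fold change. The counting step and its use of strand, the annotation, the model terms and any filter on low counts are not given in those sources. The 2 libraries of a clone and condition are biological duplicates, per the series' design text.

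The members and lists were chosen with earlier results of these data known, and no set test was run. The significance column disagreed with an adjusted p below 0.05 in 0 rows. Every member with a called part is named with its parts. Where over 3 were called, the 3 of lowest adjusted p at 72 h are given in full. Sides used the order of parts in genes with at least 3 parts. Medians per side needed at least 3 values on each side. Placement in exons or introns required at least 3 exons of equal width at 1 shared spacing in GENCODE M21 (GRCm38), and no coordinates were converted. Of the called parts, 37 could be placed, and 0 of these overlapped an annotated exon of another gene. In the table, 3 member parts overlap a part of another gene, and 0 of these were called at 72 h. The scripts (Python 3.11.15, pandas 2.3.3) were tested on simulated data. Alternatives were other thresholds, other weightings and subsets of parts.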

Additional observations from a re-analysis of the deposited data

How the results depend on the processing

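The table holds no values per library, so leaving out a library, fits within a clone and another test could not be run. No paired analysis was possible because the table carries no values per replicate. Of 21 alternatives over 8 results, 12 left the value within 1.5 times and in its direction. With an adjusted p below 0.01 the called parts were 2 at 48 h (8 as reported) and 19 at 72 h (36), in 10 genes (17). With an adjusted p below 0.1 there were 17 parts at 48 h. A minimum size of 0.1 for the log2 fold change in either direction left 13 parts at 72 h. The medians over all parts lay so close to 0 that their sign changed in some alternatives. At 48 h the median was -0.00088, against 0.000143 with 1 value a gene. At 72 h it was 0.00167, and it kept its sign with 1 value a gene (0.0037). The sign changed for parts with an adjusted p at both times (-0.00226). It also changed without parts in annotated introns (-0.00113), a setting chosen after seeing the data. The difference between the 5′ and the 3′ side was 0.04 at 72 h and kept its sign in the alternatives run, at 0.03 without first and terminal exons.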
